A study of Macaca mulatta with 9 samples.

Results

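A set of 10 genes that cells switch on in answer to type I interferon was followed in biopsies of pig kidneys carried by rhesus macaques. The genes are ISG15, ISG20, IFIT1, IFI6, IFI27, IFI44, MX1, MX2, OASL and XAF1. They were chosen by symbol, 1 probe each, from a panel of 767 probes, and all 10 symbols also occur in the macaque RefSeq annotation. Between 1KO.1TG early R and 3KO.7TG early bx grafts, 7 of the 10 genes had lower values in every 1KO.1TG early R library than in any 3KO.7TG early bx library, against 7.43% of all probes, by 3.30-fold to 5.43-fold in the fit. In the library of lowest depth, 1KO.1TG early R replicate 3, only IFI27 of these 7 was above the probes used as background. None of the 10 genes reached an adjusted p of 0.05 in this or in either other comparison.

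Type I interferons are secreted by cells that sense foreign or misplaced nucleic acid. They bind a receptor made of IFNAR1 and IFNAR2, whose kinases JAK1 and TYK2 start a signal that reaches the nucleus. There a complex that holds IRF9 binds a shared promoter element of the antiviral genes, so that many effectors are transcribed together. Interferon gamma acts through another receptor, and its best known products in a rejecting kidney are the chemokines CXCL9, CXCL10 and CXCL11, which draw T cells and natural killer cells that carry the receptor CXCR3.

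Renal biopsies had been fixed in formalin and embedded in paraffin, and their total RNA was counted on the nCounter Human Organ Transplant Panel, in which fluorescent barcodes on hybridised probes are counted without amplification. The titles give 3 groups of 3 samples: 1KO.1TG early R, 3KO.7TG late R and 3KO.7TG early bx. 1KO.1TG and 3KO.7TG are genetically altered donor pig lines, and every sample is labelled as male Macaca mulatta, although the graft comes from a pig. The labels used here do not name the altered genes, spell out R or bx, give the days after transplantation, or tell whether each sample is another animal. The p-values therefore rest on the spread among these libraries, part of which may be technical. No graft from an unaltered pig and no untransplanted kidney is among the samples.

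The probes were designed against human transcripts. Whether a probe for one of the 10 genes read pig RNA, macaque RNA or both was not measured, and fewer cells of a type cannot be told apart from less RNA per cell. Of 9 kidney tubule and podocyte markers 7 were measured. UMOD, the uromodulin of the thick ascending limb, gave 452 to 31665 counts and AQP2, the collecting duct water channel, 25 to 2534, but the proximal tubule genes LRP2 and SLC22A2 were each above the viral probes in 1 of the 9 libraries.

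Depth was 657340 to 1620151 counts in 8 libraries and 21725 in 1KO.1TG early R replicate 3. The 4 probes against BK virus, cytomegalovirus and Epstein-Barr virus, used here as a measure of background, gave 1 to 17 counts. In the library of 21725 counts 79.5% of all probes were at or below 17 counts, against 15.0% to 24.0% elsewhere. In that library only IFI27 among the 10 genes, with 30 counts, was above the highest viral probe. In the other 8 libraries 9 or 10 of the 10 were above it, the exception being IFI6. All levels below are CPM, counts scaled to a common library size after trimmed-mean scaling, and the counts of genes that use 1KO.1TG early R replicate 3 are also given without it.

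MX1 and MX2 encode dynamin-like GTPases that trap incoming viral capsids or nucleoproteins. MX1 read 458, 195 and 195 CPM in 1KO.1TG early R replicates 1 to 3, 303, 1508 and 553 CPM in 3KO.7TG late R, and 1572, 706 and 1111 CPM in 3KO.7TG early bx. MX2 read 95.4, 74.4 and 76.4 CPM in 1KO.1TG early R, 126, 409.5 and 166 CPM in 3KO.7TG late R, and 524, 258 and 307 CPM in 3KO.7TG early bx. For both genes the 1KO.1TG early R libraries lay below all 3 early bx libraries, and for MX2 they also lay below all 3 late R libraries.

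ISG15 encodes a ubiquitin-like protein that is joined to newly made proteins. It read 86.8, 63.7 and 144 CPM in 1KO.1TG early R, 84.0, 225 and 62.7 CPM in 3KO.7TG late R, and 513, 160.1 and 268 CPM in 3KO.7TG early bx. Its early R and early bx groups were apart, while late R replicate 2 lay within the early bx range and the other two late R libraries lay below it. IFIT1, which binds RNA lacking the cap marks of the host and blocks its translation, read 58.0, 80.6 and 110.4 CPM in 1KO.1TG early R, 67.0, 277 and 94.6 CPM in 3KO.7TG late R, and 372, 130.3 and 270.2 CPM in 3KO.7TG early bx. The pattern over libraries was like that of ISG15.

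IFI27, IFI44 and XAF1 are strongly interferon-inducible genes with less settled roles. IFI27 encodes a small hydrophobic membrane protein, IFI44 a cytoplasmic protein, and XAF1 an antagonist of the apoptosis inhibitor XIAP. IFI27 read 1301, 389.7 and 518 CPM in 1KO.1TG early R, 1531, 11425 and 1189 CPM in 3KO.7TG late R, and 5826, 2538 and 3033 CPM in 3KO.7TG early bx. IFI44 read 181, 148 and 195 CPM in 1KO.1TG early R, 188, 896 and 484 CPM in 3KO.7TG late R, and 1001, 429 and 535 CPM in 3KO.7TG early bx. XAF1 read 109, 45.9 and 127 CPM in 1KO.1TG early R, 126, 457 and 177 CPM in 3KO.7TG late R, and 356, 213 and 286 CPM in 3KO.7TG early bx. In each of these genes the 1KO.1TG early R libraries lay below the early bx libraries, and late R replicate 2 was the highest late R library.

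ISG20, OASL and IFI6 lacked this gap between the 1KO.1TG early R and the early bx libraries. ISG20, an exonuclease that degrades viral RNA, read 183, 295 and 76.4 CPM in 1KO.1TG early R, 143, 264 and 278 CPM in 3KO.7TG late R, and 252, 195 and 545 CPM in 3KO.7TG early bx. OASL, a relative of the oligoadenylate synthetases without their enzyme activity that aids RIG-I signalling, read 167, 164 and 144 CPM in 1KO.1TG early R, 101, 218 and 113 CPM in 3KO.7TG late R, and 216, 78.8 and 211 CPM in 3KO.7TG early bx. The 3 groups overlapped in both genes. IFI6, a mitochondrial and endoplasmic reticulum protein related to IFI27, gave only 24, 6 and 12 counts in replicates 1 to 3 of 1KO.1TG early R, 8, 10 and 12 counts in those of 3KO.7TG late R, and 13, 18 and 11 counts in those of 3KO.7TG early bx. These counts are close to those of the viral probes, so no level of IFI6 can be read from them.

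**Figure D1:**
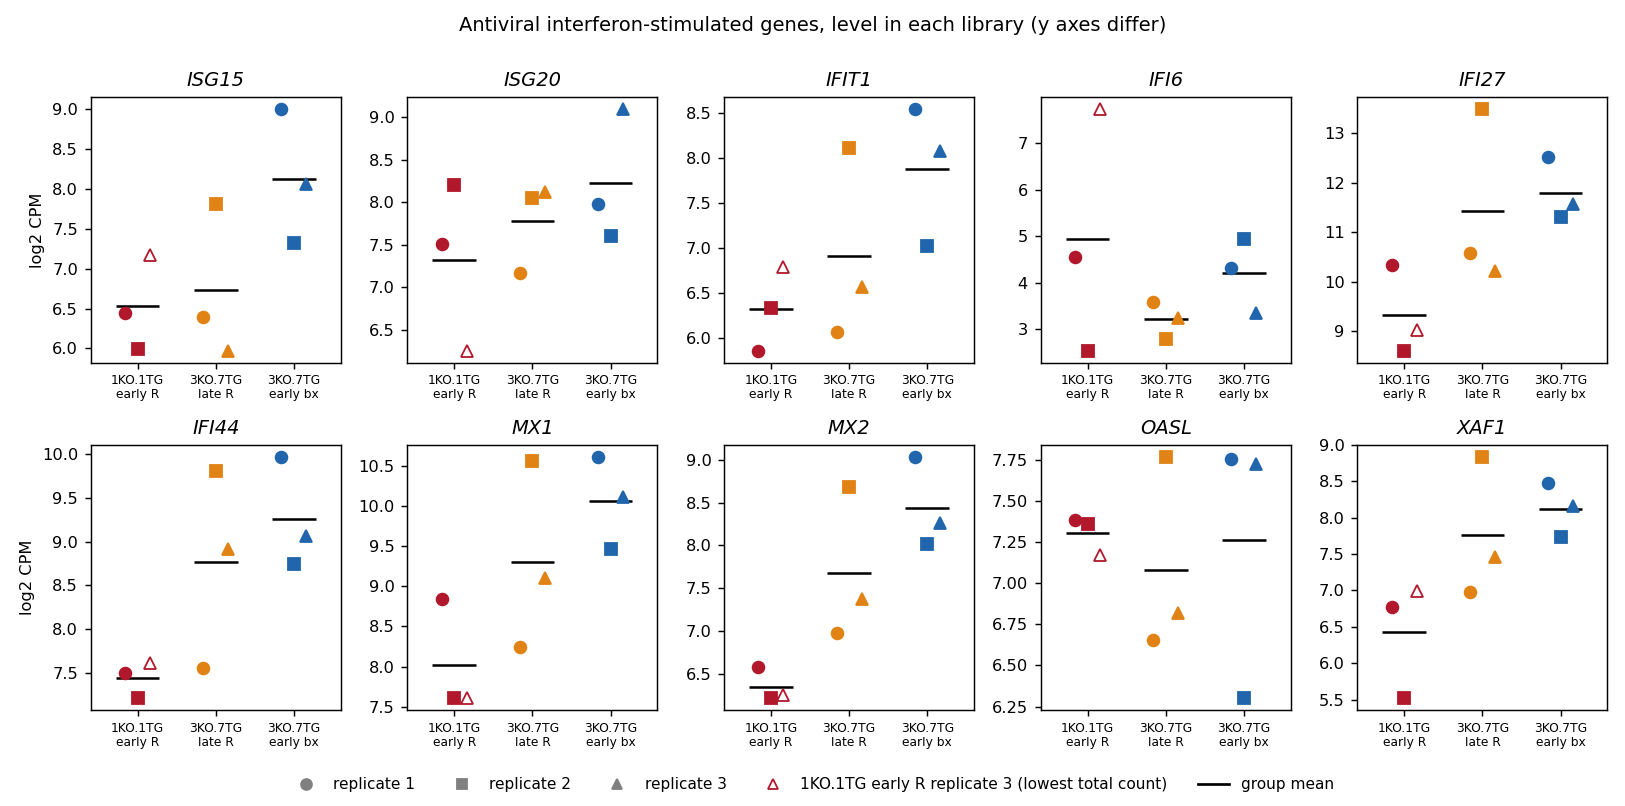
Level of each of the 10 genes in each library, in log2 CPM, with a panel per gene and y axes that differ; symbols are replicates, bars are group means, and the open triangle is the library with 21725 counts. In ISG15, IFIT1, IFI27, IFI44, MX1, MX2 and XAF1 the 1KO.1TG early R points sit below all 3KO.7TG early bx points, and the late R points are spread across both.

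By mean log2 CPM with this scaling, 8 of the 10 genes were lowest in 1KO.1TG early R and highest in 3KO.7TG early bx. In these 3KO.7TG late R was intermediate, and 7 kept that order without 1KO.1TG early R replicate 3. The share of all probes with that order was not counted. MX2, for example, averaged 6.35 ± 0.20 log2 CPM in 1KO.1TG early R, 7.68 ± 0.89 log2 CPM in 3KO.7TG late R and 8.44 ± 0.53 log2 CPM in 3KO.7TG early bx (SD, n = 3 each). No step between neighbouring groups passed the adjusted test, the adjusted p being 0.727 or more between 1KO.1TG early R and 3KO.7TG late R and 0.990 between 3KO.7TG late R and 3KO.7TG early bx.

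The comparison of 1KO.1TG early R with 3KO.7TG early bx sets grafts of both donor lines at times labelled early, with R and bx differing as well. The largest log2 fold change was that of IFI27, at -2.44 ± 0.82 (SE, adjusted p = 0.245, limma with Benjamini-Hochberg adjustment over 767 probes). MX2 had the smallest p, with -2.06 ± 0.54 (unadjusted p = 0.0025, adjusted p = 0.170), which is a 4.16-fold lower level in 1KO.1TG early R. XAF1 was at -1.92 ± 0.58 (adjusted p = 0.206), MX1 at -1.91 ± 0.65 (adjusted p = 0.245) and IFI44 at -1.88 ± 0.59 (adjusted p = 0.222). ISG15, at -1.84 ± 0.62 (adjusted p = 0.245), and IFIT1, at -1.72 ± 0.63 (adjusted p = 0.299), complete the 7 genes without overlap. ISG20 was at -0.46 ± 0.53, IFI6 at -0.08 ± 0.98 and OASL at 0.07 ± 0.51, with adjusted p of 0.816 for ISG20 and 0.990 for the other two.

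None of the 10 genes was called in this comparison, where 0.391% of all probes were. At an unadjusted p under 0.05, 7 of the 10 were lower, against 6.78% of all probes, and the same 7 had groups that did not overlap, against 7.43% of all probes. The median log2 fold change of all 10 genes was -1.86, against -0.07 over all probes. Without 1KO.1TG early R replicate 3 the 7 genes did not overlap, against 14.7% of all probes. Leaving out a library can hardly make separate groups overlap, so this was nearly fixed beforehand. The same 7 were under the unadjusted 0.05 without that library, against 7.04%. The median without it was -1.81, against 0.00 over all probes, and none was called, against 1.83% of probes.

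**Figure D2:**
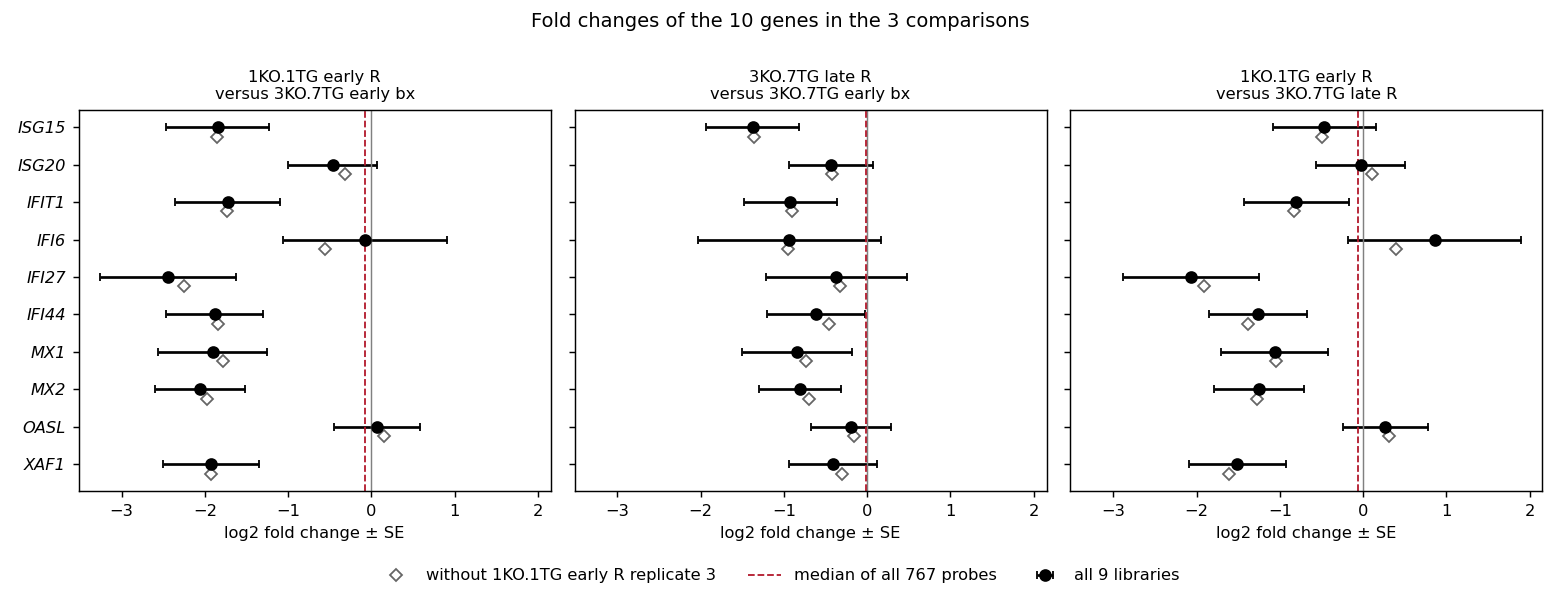
Log2 fold change with its SE for each of the 10 genes in the 3 comparisons, from all 9 libraries (filled) and without 1KO.1TG early R replicate 3 (open); the dashed line is the median of all probes. In the left panel 7 genes lie between -2.44 and -1.72, and ISG20, IFI6 and OASL lie near the dashed line.

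The size of this difference depended on which RNA set the scale. Scaling on the probes marked as pig moved the median of the 10 genes to -0.98 and that of all probes to 0.81, and left 0 genes under the unadjusted 0.05, against 0.391% of probes. Scaling on the probes marked as macaque gave -2.39 for the 10 genes and -0.43 for all probes, with 8 genes under 0.05, against 15.6% of probes, and MX2 was then called (-2.61 ± 0.52, adjusted p = 0.0367). Set against the median of all probes, the 10 genes lay at -1.79 with the trimmed mean, -1.79 with pig and -1.96 with macaque scaling. A scaling factor moves all probes of a library together, so this gap was nearly fixed beforehand and does not test the scaling. Each of the 7 genes kept a negative sign under all 27 alternatives. They were picked by their gap in these data, so leaving out a library could hardly turn the sign. Leaving out 3KO.7TG early bx replicate 1 left 3 genes under 0.05, IFI44, MX2 and XAF1, against 3.65% of probes.

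Measures of biopsy composition were set beside this comparison. The log2 ratio of macaque to pig counts over 4 reference genes that have a probe for each species averaged -1.75 ± 1.05 for 1KO.1TG early R, against -2.69 ± 1.20 for 3KO.7TG early bx (SD, n = 3 each). The 4 measured neutrophil markers of 7 listed summed to 747 to 45033 CPM in 1KO.1TG early R, against 320.3 to 351 CPM in 3KO.7TG early bx. The 7 kidney markers summed to 789.6 to 10182 CPM in 1KO.1TG early R, against 7697 to 50269 CPM in 3KO.7TG early bx, with UMOD making up 75.5% to 97.0% of the sum in these 6 libraries. The 5 measured of 7 monocyte and macrophage markers summed to 1095 to 14587 CPM in 1KO.1TG early R, against 4405 to 5962 CPM in 3KO.7TG early bx, and the 5 T cell markers to 330.4 to 756 CPM, against 250.1 to 955 CPM. Neutrophil sums did not overlap between these groups, while the kidney, monocyte and T cell sums did. The early R neutrophil low of 747 CPM and T cell high of 756 CPM both came from 1KO.1TG early R replicate 3, at 42 counts each. There 3 of the 4 neutrophil and 4 of the 5 T cell markers were at or below the highest viral probe. Replicates 1 and 2 of 1KO.1TG early R summed to 4463 and 45033 CPM for neutrophil markers and to 330.4 and 738 CPM for T cell markers. The monocyte overlap came from 1KO.1TG early R replicate 3, where 4 of the 5 markers were at or below the highest viral probe, and the other early R libraries, at 7609 and 14587 CPM, lay above all early bx libraries. Without that library 4 of the 5 monocyte and all 4 neutrophil markers were higher at an unadjusted p under 0.05, against 13.0% of all probes. Of the 7 kidney markers 2 were lower at that p, against 6.78% of all probes. These were UMOD, at a log2 fold change of -2.36 ± 0.95 (SE), and AQP2, at -3.02 ± 1.28. Without 1KO.1TG early R replicate 3 the kidney count was also 2, against 7.04% of all probes. No marker was at 0 in any library, the smallest count in the table being 1. The part of composition in the difference of the antiviral genes was not tested.

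**Figure D3:**
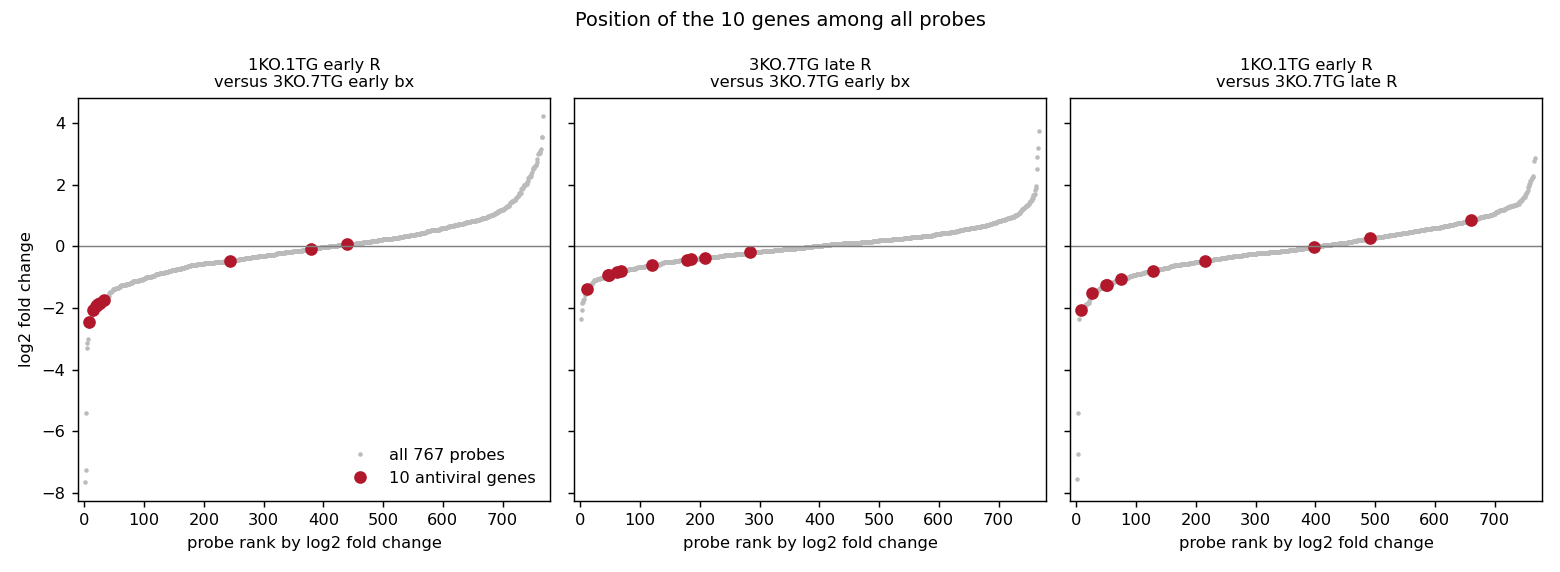
All 767 probes ordered by log2 fold change in each comparison (grey), with the 10 genes in red; the x axis is the rank and the y axis the log2 fold change. In the left panel 7 of the 10 genes cluster at the low end, while in the other two panels they are spread over a wider range of ranks.

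Late R and early bx grafts of the same donor line, 3KO.7TG, differ in the time label as well as in R and bx. All 10 genes had a log2 fold change below 0, against 50.8% of all probes, although ISG20, IFI27, IFI44, OASL and XAF1 were above 0 unscaled. The median was -0.71, against -0.02 over all probes. ISG15 had the largest, -1.38 ± 0.56 (unadjusted p = 0.0304, adjusted p = 0.990), and IFIT1 was at -0.92 ± 0.56, MX1 at -0.85 ± 0.66 and MX2 at -0.81 ± 0.49. XAF1, IFI27 and OASL were at -0.41 ± 0.53, -0.37 ± 0.85 and -0.20 ± 0.48, and with pig scaling these were at 0.04, 0.06 and 0.25. None of the 10 was called, against 0% of probes, and ISG15 alone was under the unadjusted 0.05, against 0.261% of probes for lower values. In no gene were the groups apart, against 3.78% of probes. Neutrophil markers summed to 1010.5 to 9275 CPM in late R, against 320.3 to 351 CPM in early bx, and 2 of the 4 were higher at the unadjusted 0.05, against 1.43% of all probes. Monocyte and macrophage markers summed to 6211 to 13111 CPM in late R, against 4405 to 5962 CPM in early bx, so that neither sum overlapped. Their part in the values of the 10 genes was not tested.

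The late R libraries were unlike each other. Replicate 2 was the highest late R library for 8 of the 10 genes, all but ISG20 and IFI6. It stood 7.46-fold above the next late R library for IFI27, 2.93-fold for IFIT1, 2.73-fold for MX1, 2.68-fold for ISG15, 2.59-fold for XAF1 and 2.47-fold for MX2. The 10 genes together took 1.47% of its counts, against 0.236% and 0.257% in the other late R libraries. IFI27 alone gave 17309 of the 23763 counts of the 10 genes there, against 1084 of 1895 and 1564 of 4109 in replicates 1 and 3. Without late R replicate 2 the median was -1.19 and 4 genes, ISG15, IFIT1, MX1 and MX2, were lower at the unadjusted 0.05, against 1.04% of probes. Without late R replicate 1 the median was -0.14 and 0 genes were, against 0.261% of probes. The count was also 0 without late R replicate 3, against 0% of probes, without early bx replicate 1, against 0.130%, and without early bx replicate 3, against 2.61%.

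The third comparison, 1KO.1TG early R with 3KO.7TG late R, sets donor lines side by side under the same R label at different times, and uses the same early R libraries as the first. IFI27 was at -2.07 ± 0.82, XAF1 at -1.51 ± 0.58 and MX2 at -1.25 ± 0.54, each with an adjusted p of 0.727. IFI44 was at -1.26 ± 0.59 and MX1 at -1.06 ± 0.64, while OASL was at 0.27 ± 0.51. IFI6, whose counts were close to those of the viral probes, was at 0.86 ± 1.04. The median was -0.93, against -0.06 over all probes. None of the 10 was called, against 0.391% of probes. IFI27, MX2 and XAF1 were under the unadjusted 0.05, against 3.78% of probes for lower values, and MX2 alone had groups that did not overlap, against 6.65%.

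The count changed with single libraries. Without 1KO.1TG early R replicate 3, XAF1 alone was under the unadjusted 0.05, against 3.39% of probes, and IFI44, MX2 and XAF1 had groups apart, against 11.3%. The count under 0.05 was 0 without late R replicate 2, with a median of -0.34, against 1.83% of probes, and 0 without 1KO.1TG early R replicate 2, against 4.69%. It was 5 without late R replicate 1, against 3.13%.

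Among themselves, 7 of the 10 genes moved together from library to library. Over the 8 libraries other than 1KO.1TG early R replicate 3, the correlation of a gene with the mean of the other 9 was 0.977 for MX1, 0.954 for MX2, 0.938 for IFIT1, 0.920 for ISG15, 0.914 for IFI44, 0.902 for XAF1 and 0.867 for IFI27. It was 0.440 for OASL, 0.332 for ISG20 and 0.028 for IFI6. These are descriptions over 8 libraries that share the group differences and the scaling.

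Single libraries stood at the ends of the range. Early bx replicate 1 had the highest level of all 9 libraries for 5 of the 10 genes and late R replicate 2 for 3. At the other end, 1KO.1TG early R replicate 2 had the lowest level for 6. Neutrophil markers did not follow the same order, as they summed to 45033 CPM in 1KO.1TG early R replicate 2, to 9275 CPM in late R replicate 2 and to 351 CPM in early bx replicate 1.

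The CXCR3 ligands, which were set beside the 10 genes after their values had been seen, ran the other way in the libraries at the top. CXCL9 read 1458, 685 and 416 CPM in 1KO.1TG early R, 1103, 140.3 and 1257 CPM in 3KO.7TG late R, and 158, 1844 and 1516 CPM in 3KO.7TG early bx. CXCL10 read 193, 129.6 and 110.4 CPM in 1KO.1TG early R, 299, 54.5 and 313 CPM in 3KO.7TG late R, and 90.2, 265 and 391 CPM in 3KO.7TG early bx. CXCL11 read 1205, 443 and 229 CPM in 1KO.1TG early R, 1905, 397 and 1277 CPM in 3KO.7TG late R, and 658, 2281 and 1938 CPM in 3KO.7TG early bx. Late R replicate 2 and early bx replicate 1, the highest of their groups for most antiviral genes, were each the lowest of their group for all 3 chemokines. Between groups CXCL9 was at 0.03 ± 1.03, CXCL10 at -0.44 ± 0.74 and CXCL11 at -1.34 ± 0.77 in log2 fold change between 1KO.1TG early R and 3KO.7TG early bx, and none was called. With 1KO.1TG early R replicate 3 left out these were 0.47 ± 1.18, -0.37 ± 0.85 and -0.89 ± 0.78.

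**Figure D4:**
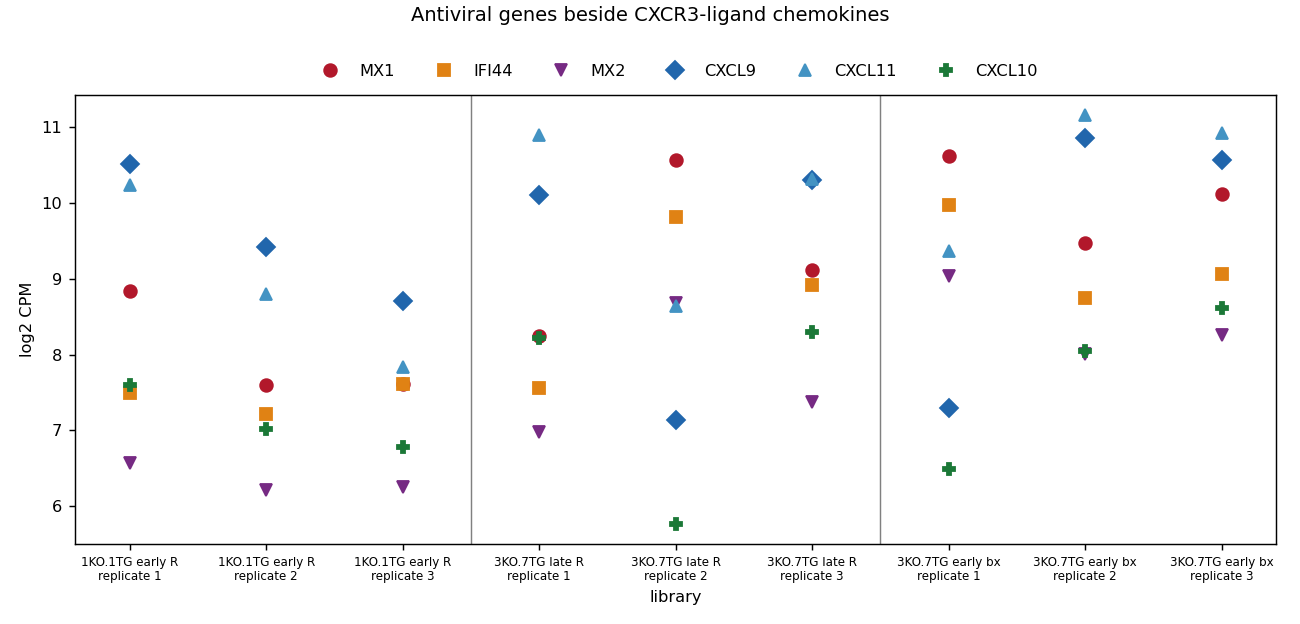
Log2 CPM of MX1, IFI44 and MX2 and of the chemokines CXCL9, CXCL10 and CXCL11 in each of the 9 libraries, with vertical lines between the groups. In 3KO.7TG late R replicate 2 and 3KO.7TG early bx replicate 1 the 3 antiviral genes are the highest of their group and the 3 chemokines the lowest.

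Other interferon-induced genes were read from a list of 46, of which 17 were measured, and 0 of the 17 were called in any comparison. Between 1KO.1TG early R and 3KO.7TG early bx, 2 of the 17 were lower and 0 higher at an unadjusted p under 0.05, against 6.78% of all probes lower and 6.39% higher. These were TRIM22, an antiviral ubiquitin ligase, at -1.24 ± 0.48 (adjusted p = 0.310) and IFITM1, a membrane protein that hinders viral entry, at -1.35 ± 0.59 (adjusted p = 0.350). The list's median was -0.44, against -0.07 for all probes. With 1KO.1TG early R replicate 3 left out, 1 was lower and 1 higher, against 7.04% and 13.0% of all probes, IFITM1 was at -0.89 ± 0.48, and the median was -0.37. Between 3KO.7TG late R and 3KO.7TG early bx, 0 of the 17 passed 0.05 and the median was -0.24. TAP1, the peptide transporter of antigen presentation, was at -0.50 ± 0.44 there, and TRIM22 at -0.40 ± 0.44. Relative to 3KO.7TG late R, BST2, which tethers budding virus, was in 1KO.1TG early R at -1.46 ± 0.65 (adjusted p = 0.727) and alone of the 17 under the unadjusted 0.05, against 3.78% of all probes lower. TRIM22 was at -0.84 ± 0.48, and the median was -0.27. Without 1KO.1TG early R replicate 3, 0 of the 17 were under 0.05, against 3.39% of probes, BST2 was at -0.90 ± 0.47 and the median was -0.18.

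Interferon, receptor and signalling genes numbered 26 measured of 44 listed, and 0 were called in any comparison with all 9 libraries. The IFNA1 probe, the only one for a type I interferon itself, gave 3 to 11 counts in the 9 libraries, which is within the range of the viral probes. Of the receptor genes, IFNAR1 was at -0.11 ± 0.42 and IFNAR2 at 0.18 ± 0.62 in 1KO.1TG early R relative to 3KO.7TG early bx, with adjusted p of 0.990 for each and groups that overlapped. IFNAR2 overlapped only through 1KO.1TG early R replicate 3, which gave 12 counts, no more than its highest viral probe. The other early R libraries read 951 and 1409.5 CPM, against 507, 577 and 882 CPM in early bx, and without that library IFNAR2 was at 0.93 ± 0.40 (adjusted p = 0.234) and IFNAR1 at -0.020 ± 0.43. CLEC4C, the only measured marker of plasmacytoid dendritic cells, a main source of type I interferon, gave 6 to 77 counts.

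Set against early bx, the 1KO.1TG early R libraries had 4 of the 26 signalling genes lower and 1 higher at an unadjusted p under 0.05, where 6.78% and 6.39% of all probes were. SOCS1, an inhibitor of JAK kinases that interferons induce, read 238, 236 and 297 CPM in 1KO.1TG early R against 913, 621 and 968 CPM in 3KO.7TG early bx, a log2 fold change of -1.73 ± 0.43 (adjusted p = 0.170). SOCS3, the related inhibitor best known downstream of interleukin-6, read 179, 506 and 212 CPM in 1KO.1TG early R against 30.1, 53.9 and 45.8 CPM in 3KO.7TG early bx, at 2.76 ± 0.72 (adjusted p = 0.170). Neither pair of groups overlapped, and SOCS1 and SOCS3 lay on opposite sides of 0. Among the other lower genes were TLR3 at -1.89 ± 0.77 and IRF7 at -1.11 ± 0.42, both named after their values were seen. TLR3 is a sensor of double-stranded RNA and IRF7 the factor that amplifies interferon transcription. In 1KO.1TG early R replicates 1 to 3 TLR3 gave 18, 11 and 13 counts, near the highest viral probes of 13, 10 and 13. In replicate 3 IRF7 gave 11 counts and SOCS3 12, below the highest viral probe there. Without 1KO.1TG early R replicate 3, 5 of the 26 were lower and 4 higher at the unadjusted 0.05, against 7.04% and 13.0% of all probes, and 13 lay below 0 and 13 above it. In that fit SOCS1 was called, at -1.72 ± 0.36 (adjusted p = 0.0468), 1 of the 26 against 1.83% of all probes. SOCS3 was then at 2.91 ± 0.69 (adjusted p = 0.0619), TLR3 at -2.22 ± 0.63 and IRF7 at -1.14 ± 0.40.

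Between late R and early bx of 3KO.7TG, SOCS1 was at -0.97 ± 0.42 and SOCS3 at 1.47 ± 0.68, with adjusted p of 0.990 for each. At the unadjusted 0.05 these 2 of the 26 passed, 1 lower and 1 higher, against 0.261% and 1.43% of all probes. Relative to 3KO.7TG late R, the 1KO.1TG early R value of SOCS3 was 1.28 ± 0.60 (adjusted p = 0.727), and 1 of the 26 was lower and 0 higher under the unadjusted 0.05, against 3.78% of probes lower. Leaving out 1KO.1TG early R replicate 3 put SOCS3 at 1.39 ± 0.64 there and left 3 of the 26 lower, against 3.39% of probes. The list's median was -0.14, 0.09 and -0.44 in the 3 comparisons, in the order in which they are described above, and 0.035, 0.12 and -0.079 without that library, so that the first turned sign.

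Among the 5 other probes whose level over the 8 deeper libraries was most like the mean of the 10 genes were CFB, C1S, PSMB8 and COL1A1. Pearson's r was 0.955 for CFB, 0.940 for C1S, 0.895 for PSMB8 and 0.889 for COL1A1. Spearman's rho was 0.976, 0.929, 0.905 and 0.881 in the same order. COL1A1 gave 913 counts in late R replicate 2 and 84 to 142 in early bx. It gave only 15 and 6 in 1KO.1TG early R replicates 1 and 2, and 14 and 21 in late R replicates 1 and 3. In these 4 libraries C1S gave 16 to 32 counts and the highest viral probes 10 to 17, so part of the likeness rests on values near background. With 1KO.1TG early R replicate 3 included, r was 0.898 for CFB, 0.753 for C1S, 0.530 for PSMB8 and 0.722 for COL1A1. CFB encodes a factor of the alternative complement pathway and C1S a protease of the classical pathway. CFB read 27.3, 15.6 and 93.4 CPM in 1KO.1TG early R, 27.5, 249 and 47.5 CPM in 3KO.7TG late R, and 439, 82.1 and 88.6 CPM in 3KO.7TG early bx. In 1KO.1TG early R replicate 3 CFB gave 5 counts and C1S 9, below the highest viral probe of 13 there, so their levels in it cannot be read. Late R replicate 2 and early bx replicate 1 were again the highest of their groups. PSMB8, an interferon-inducible subunit of the immunoproteasome, read 2040.1, 1672 and 416 CPM in 1KO.1TG early R, 2141, 2573 and 2569 CPM in 3KO.7TG late R, and 3382, 2651 and 3258 CPM in 3KO.7TG early bx. These correlations were picked as the highest of all probes and share depth, scaling and group with the 10 genes.

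**Figure D5:**
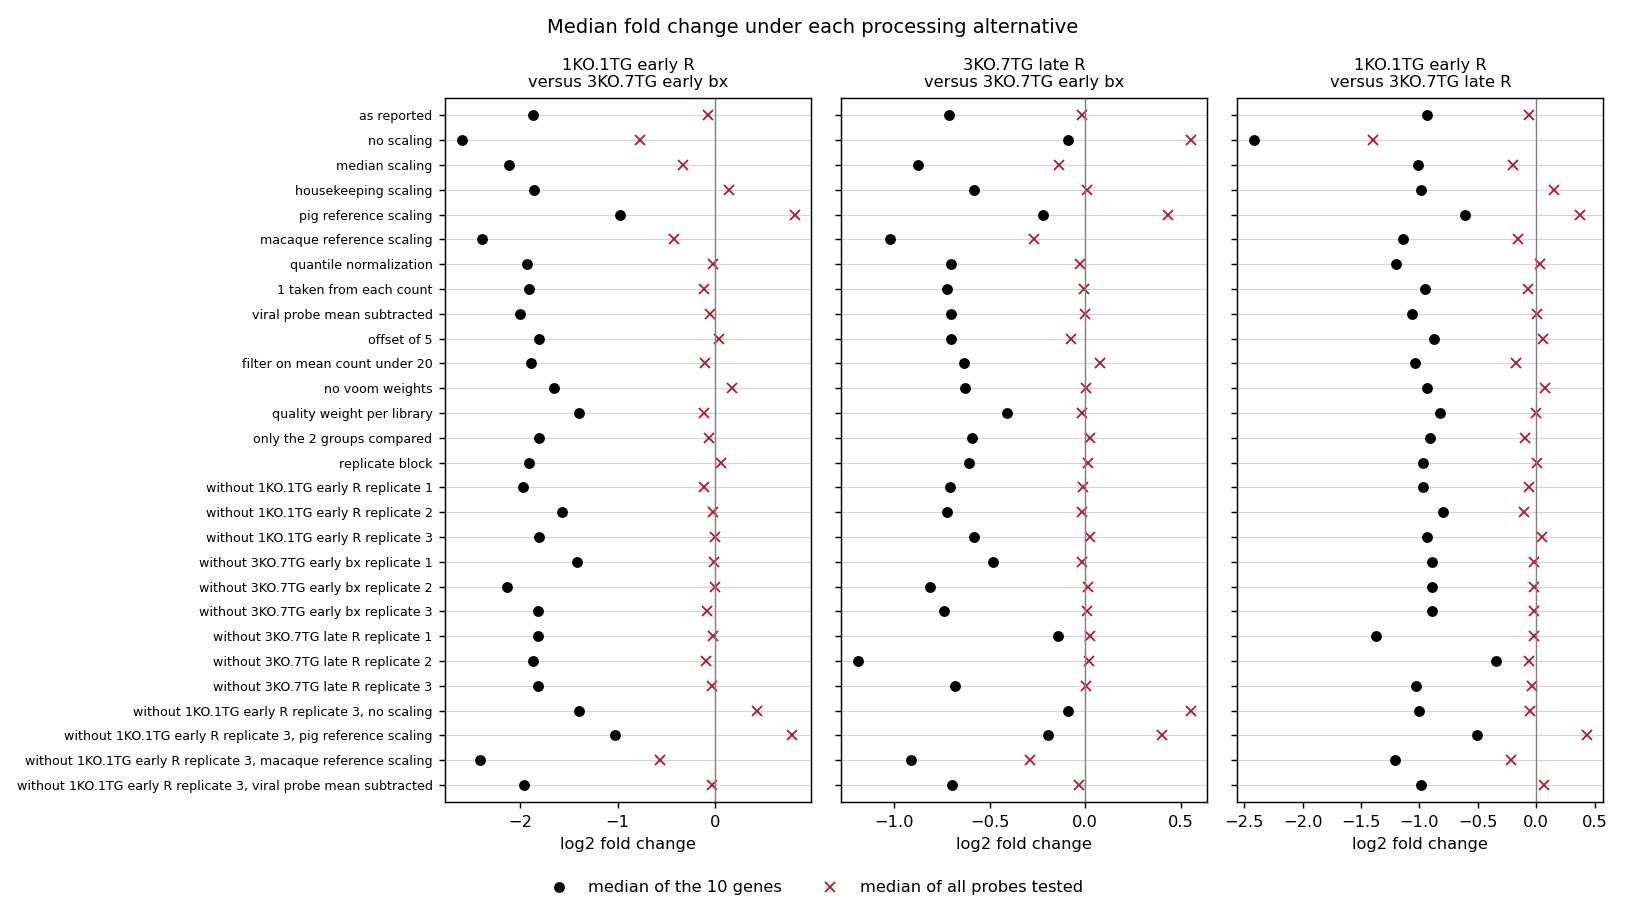
Median log2 fold change of the 10 genes (filled circles) and of all probes tested (crosses) under the reported processing and 27 alternatives, in a panel per comparison with x axes that differ. The circles stay left of the crosses in every line, while both move with the scaling. For the 10 genes in the left panel the move is from -2.59 unscaled to -0.98 with pig scaling. A scaling factor per library shifts circles and crosses nearly alike, so their gap does not test the scaling.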

How the data were processed

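The deposited values are log2 values for 767 probes in 9 samples. The labels state an absorbance ratio that RNA had to exceed and no step after counting. Raising 2 to each deposited log2 value gave a whole number for 100% of values (relative tolerance 1e-04, smallest 1), and totals differed between libraries, so they were read as log2 of unscaled counts; no label used here tells whether a 1 had been added first. Counts were scaled with trimmed-mean factors (trims of 0.3 and 0.05, factors 0.761 to 2.71) and tested with voom (offset 0.5), lmFit on 3 group means and eBayes in limma 3.58.1 under R 4.3.3, two-sided, adjusted by Benjamini-Hochberg over all 767 probes and called at 0.05. No probe was left out. SE is the moderated standard error. The fit was tested on simulated data.

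The 10 genes, the gene lists, the tests and the alternatives were chosen with earlier results of these data known. Named genes were all 10; of each list its 2 smallest p per comparison; and the 5 probes most correlated with the mean z-score of the 10 over libraries with at least 0.1 of the median total; some genes that this rule picks are not reported here. Macaque and pig probes are those the table marks, unchecked. The alternatives changed the scaling, offset, background, filter, weights, samples, replicate block and each library.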

Additional observations from a re-analysis of the deposited data

How the results depend on the processing

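Over 27 alternatives, of which those that join the removal of 1KO.1TG early R replicate 3 with another choice were added after seeing the data, no gene was called in any comparison except MX2 in 1KO.1TG early R relative to 3KO.7TG early bx with macaque scaling, where 1 gene was called. In that comparison ISG15, IFIT1, IFI27, IFI44, MX1, MX2 and XAF1 stayed below 0 throughout. Their groups were apart, so leaving out a library could hardly change this. The median of the 10 genes was -2.59 unscaled, -0.98 with pig scaling and, without 1KO.1TG early R replicate 3, -1.03 with pig and -2.41 with macaque scaling. Leaving out single libraries gave -2.13 to -1.41, with 0 called. In 3KO.7TG late R against 3KO.7TG early bx the median was -0.090 unscaled, with or without that library, and -1.19 to -0.14 without single libraries. Between 1KO.1TG early R and 3KO.7TG late R it was -2.42 unscaled and -1.37 to -0.34 without single libraries. Shifts of all probes under scaling went with these; the cause of the rest was not tested.

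Signs that turned were those of small values. Between 1KO.1TG early R and 3KO.7TG early bx, OASL was at -0.89 unscaled, -0.14 with median, -0.42 with macaque and -0.42 with quantile scaling, -0.012 with the viral mean subtracted and -0.44 with macaque scaling without 1KO.1TG early R replicate 3. ISG20 was at 0.010 with pig scaling and, without that library, at 0.12 unscaled and 0.46 with pig scaling. IFI6 was at 1.13 with pig scaling, 1.03 with quantile scaling, 0.074 with an offset of 5, 0.74 without voom weights, 0.38 with the replicate block and 0.092 with pig scaling without that library. Without single libraries IFI6 ranged from -0.68 to 0.91, OASL from -0.33 to 0.37 and ISG20 from -0.84 to 0.011.

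In 3KO.7TG late R against 3KO.7TG early bx, unscaled values were 0.089 for ISG20, 0.17 for IFI27, 0.040 for IFI44, 0.36 for OASL and 0.17 for XAF1, also without 1KO.1TG early R replicate 3. Pig scaling gave 0.057 for IFI27, 0.25 for OASL and 0.039 for XAF1, and without that library 0.0044 for ISG20, 0.062 for IFI27, 0.24 for OASL and 0.077 for XAF1. A quality weight per library gave 0.34 for OASL. Without single libraries IFI27 ranged from -1.38 to 0.31, OASL from -0.63 to 0.065, IFI44 from -1.11 to 0.11 and XAF1 from -0.90 to 0.035.

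Between 1KO.1TG early R and 3KO.7TG late R, OASL was at -1.25 unscaled and -0.10 with quantile scaling, and ISG15 at 0.052 with pig scaling. ISG20 was at 0.069 with pig scaling, 0.047 with an offset of 5, 0.011 with only the 2 groups in the fit and 0.12 with the replicate block. Without 1KO.1TG early R replicate 3 ISG20 was at 0.032 unscaled, 0.46 with pig scaling and 0.094 with the viral mean subtracted. Without single libraries ISG20 ranged from -0.41 to 0.16 and ISG15 from -0.83 to 0.13.

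Residuals of same-numbered libraries correlated at -0.45 to 0.48, and those of differently numbered libraries at -0.53 to 0.47. Residuals from a mean of 3 libraries are tied to each other, so these correlations cannot decide whether samples were paired by number. With the replicate block 0 genes were called in each comparison, and the medians were -1.91, -0.61 and -0.97 in the order of the comparisons above. The filter on mean counts under 20 left IFI6 out. Depth limits what IFI6 and all 10 genes but IFI27 can show in 1KO.1TG early R replicate 3.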
